A study of Equus caballus with 40 samples.

Results

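NR4A1, NR4A2 and NR4A3, the nuclear receptors also called Nur77, Nurr1 and NOR-1, and RCAN1, the regulator of calcineurin, were followed across 40 arrays of equine chondrocyte pellets. They were chosen by their measured values on the serum and IL-1β arrays at 2 h, where members of the set had stood out. Those serum arrays are therefore described here without a test. The rule took every row of the value table that the platform annotation gives to 1 of these symbols, and it found 4 of 16661 named genes, each with 1 probe set among 30559.

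The pellets were cartilage cells grown in 3D culture, the form in which chondrocytes keep making their own matrix. Groups formed from 5 treatments and 2 harvest times held 4 arrays each. Pellets of the serum groups and of the IL-1β group had first been kept for 48 h with 5 ng/ml recombinant interleukin-1β of the horse (IL-1β), the cytokine commonly used to imitate an inflamed joint. They then went on with IL-1β plus autologous equine serum (AES), IL-1β plus a preparation labelled AES24h, IL-1β plus autologous conditioned serum (ACS), or IL-1β alone, and were harvested after 2 h or 48 h. Control pellets never received IL-1β. The labels give 1 pellet per group for each RNA extraction, but not what AES24h stands for, the serum dose, the age of the animals or whether replicates came from separate horses. The p-values thus cover the spread among these arrays alone, part or all of which may be technical, and 4 arrays a group limit the precision.

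NR4A receptors bind DNA without needing a classical hormone ligand, so their activity is thought to be set largely by how much of them a cell makes. Their genes belong to the immediate early class, transcribed within minutes to hours of growth factors, cytokines, prostaglandins that raise cAMP, or calcium entry, and silenced again soon after. NR4A1 and NR4A2 can pair with retinoid X receptors, and in joint tissue the family is known for its link to inflammation and to matrix-degrading enzymes. RCAN1 binds and restrains calcineurin, the calcium-dependent phosphatase that sends NFAT factors to the nucleus, and 1 of its transcripts is itself driven by NFAT, which makes it a feedback inhibitor. The single RCAN1 probe set gave 1 value for the gene, so its transcripts were not told apart.

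Values are log2 array signals, on which a difference of 1 is a doubling. They compare a gene between arrays, not one gene with another. Array medians lay between 4.35 and 4.59, and pairs of arrays from the same group had r of 0.962 to 0.984 over all probe sets. RCAN1 and NR4A2 lay above every array median on all 40 arrays and NR4A1 on 30. NR4A3 lay below every median on 37 arrays and above them on 3, so most of its values were not shown to exceed background and its differences give no exact fold. Of 17 measured chondrocyte markers, 13 lay above every array median in IL-1β pellets at 2 h and 15 in control pellets, with collagen II and aggrecan on the list. Of 15 leukocyte markers 12 lay below every median in IL-1β pellets at 2 h and 14 in control pellets.

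At 2 h all 4 genes had higher means in each serum group than with IL-1β alone, and NR4A2 was the furthest apart. NR4A2 measured 8.48, 9.14, 7.49 and 8.68 in the AES arrays. It measured 8.35, 7.90, 6.85 and 8.17 with AES24h and 8.42, 9.24, 8.66 and 8.61 with ACS. With IL-1β alone it was 7.10, 5.33, 5.04 and 5.72, and in control pellets 5.57, 5.86, 4.59 and 5.86. Every AES and ACS array lay above every IL-1β array, whereas the lowest AES24h array, replicate 3, lay below the highest IL-1β array, replicate 1. The mean differences from IL-1β alone were 2.65 for AES, 2.02 for AES24h and 2.94 for ACS, which is 6.27-fold, 4.06-fold and 7.66-fold. Ranked from the highest difference among 30559 probe sets, NR4A2 stood at place 2 for AES, 3 for AES24h and 1 for ACS. High places follow from the choice of genes on these arrays, so nothing is read from them.

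NR4A1, the founding member of the family, showed a smaller step than NR4A2, with SDs of 0.25, 0.26 and 0.52 for AES, AES24h and ACS. It measured 5.91, 6.34, 5.85 and 5.79 with AES, 5.47, 5.999, 5.47 and 5.49 with AES24h, and 5.93, 6.71, 6.12 and 5.45 with ACS. With IL-1β alone it measured 4.91, 4.57, 4.41 and 5.09, and in control pellets 4.87, 4.85, 4.68 and 4.97. All 12 serum arrays lay above all 8 arrays without serum. The mean differences from IL-1β alone were 1.23 for AES, 0.86 for AES24h and 1.30 for ACS.

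NR4A3 was uneven between arrays. It reached 4.98 and 5.15 in AES replicates 2 and 4 and 5.71 in ACS replicate 2, the 3 arrays on which it exceeded every array median. The remaining AES arrays had 2.90 and 3.06, the remaining ACS arrays 3.11, 3.55 and 3.42, and the AES24h arrays 3.66, 3.14, 3.38 and 3.14. IL-1β arrays ran from 2.31 to 3.01 and control arrays from 2.49 to 2.74. Thus 11 of 12 serum arrays lay above all arrays without serum, but the group means of AES (4.02 ± 1.21, SD, n = 4) and ACS (3.95 ± 1.19, SD, n = 4) rested on a few high arrays. The ACS difference from IL-1β alone was 1.26, and 0.67 without ACS replicate 2.

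RCAN1 had the most even early difference of the set. It measured 10.33, 10.15, 9.79 and 10.30 with AES, 10.09, 10.36, 9.55 and 10.41 with AES24h, and 9.91, 9.87, 10.23 and 10.09 with ACS. With IL-1β alone it measured 9.25, 8.55, 8.25 and 8.83, and in control pellets 8.14, 8.59, 8.42 and 8.30. No serum array overlapped with IL-1β or control arrays. The 3 sera differed from IL-1β alone by nearly the same amount, 1.42 for AES, 1.38 for AES24h and 1.31 for ACS, or 2.68-fold, 2.61-fold and 2.47-fold.

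Across the set, all 4 AES arrays lay above all 4 IL-1β arrays for 3 of 4 genes, as they did for 2.44% of all probe sets. The same held for 3 of 4 genes with AES24h (1.67% of all probe sets) and for 4 of 4 with ACS (1.53%). Since the genes were chosen for this response, these counts describe the choice and nothing is read from them.

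**Figure D1:**
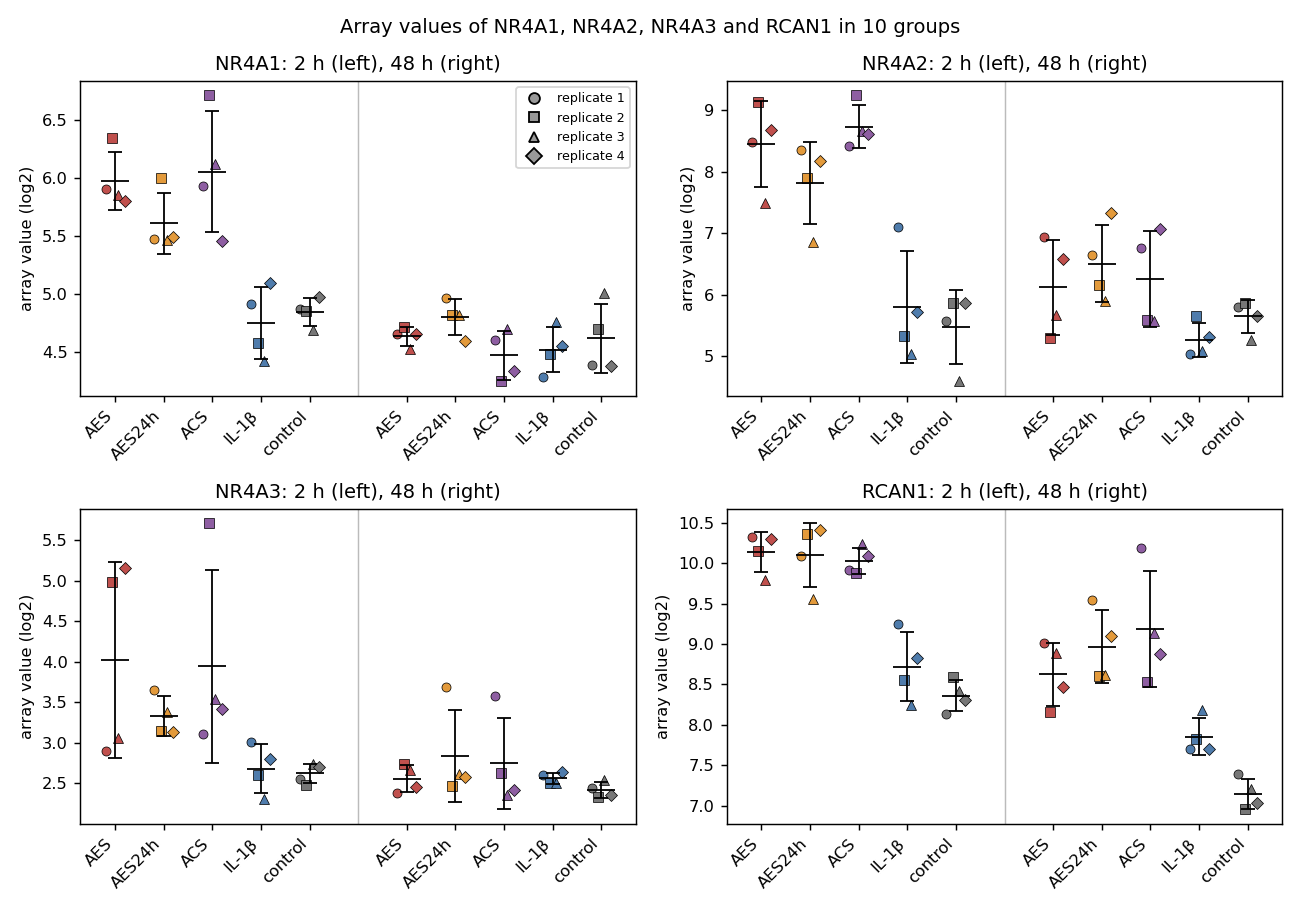
Array values (log2) of NR4A1, NR4A2, NR4A3 and RCAN1 in the AES, AES24h, ACS, IL-1β and control groups, at 2 h on the left and 48 h on the right of each panel. Symbols are single arrays by replicate number, long bars are group means and whiskers 1 SD (n = 4). At 48 h the NR4A1 serum arrays (4.24 to 4.96) overlap the IL-1β and control arrays, whereas 11 of 12 RCAN1 serum arrays lie above all of them.

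Among the sera at 2 h, AES24h had the lowest mean of all 3 NR4A genes. ACS exceeded AES24h by 0.92 for NR4A2, where the lowest ACS array (8.42) lay just over the highest AES24h array (8.35). For NR4A1 the ACS group exceeded AES24h by 0.45 and for NR4A3 by 0.61, with overlapping arrays. For RCAN1 the difference was −0.08. ACS and AES differed by 0.08 for NR4A1, 0.29 for NR4A2, −0.08 for NR4A3 and −0.12 for RCAN1, all with overlapping arrays. These differences share the arrays that led to the choice of genes and were not tested.

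IL-1β alone was set against control to ask whether these genes differed under the cytokine itself. The IL-1β pellets had already been kept with it for 48 h before the 2 h or 48 h to harvest. Their first hours with IL-1β were thus not measured. At 2 h this comparison holds the IL-1β arrays used in choosing the genes, so it is described without a test. The log2 differences were 0.33 for NR4A2, −0.10 for NR4A1, 0.06 for NR4A3 and 0.36 for RCAN1, all with overlapping arrays.

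At 48 h limma, a linear model fitted across all probe sets with Benjamini-Hochberg adjustment, called 0 of 4 genes between IL-1β and control at an adjusted p below 0.05, against 1.26% of all probe sets, and 1 of 4 had an unadjusted p below 0.05, against 9.83%. That gene was RCAN1, at 7.70, 7.82, 8.18 and 7.70 with IL-1β and 7.39, 6.96, 7.20 and 7.03 in control pellets. All 4 IL-1β arrays lay above all 4 control arrays, as for 3.68% of all probe sets, with a log2 difference of 0.71 (SE 0.25, limma adjusted p = 0.248). The difference at 48 h minus that at 2 h, again without a test, was 0.35 for RCAN1 and −0.71 for NR4A2.

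The comparison of sera with IL-1β alone at 48 h asked whether the early difference was still present. The arrays compared had played no part in choosing the genes, but limma took the spread from all 40 arrays, those at 2 h included. RCAN1 had a higher mean in all 3 serum groups and was called by limma in 2. It measured 9.01, 8.16, 8.88 and 8.46 with AES, 9.54, 8.60, 8.62 and 9.10 with AES24h, and 10.19, 8.53, 9.14 and 8.87 with ACS, against 7.70, 7.82, 8.18 and 7.70 with IL-1β alone. Every AES24h and ACS array lay above every IL-1β array, as for 2.34% and 2.14% of all probe sets, and the lowest AES array (8.16) lay just under the highest IL-1β array (8.18). RCAN1 rose by 1.33 with ACS (SE 0.25, limma adjusted p = 0.0125, 2.52-fold) and by 1.11 with AES24h (SE 0.25, limma adjusted p = 0.0475, 2.17-fold). With AES the difference was 0.78 (95% interval 0.26 to 1.29), which did not pass (limma adjusted p = 0.195).

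Limma called 1 of 4 genes with ACS (0.262% of all probe sets), 1 of 4 with AES24h (0.226%) and 0 of 4 with AES (0.442%). An unadjusted p below 0.05 was reached by 2, 2 and 1 of 4 genes with ACS, AES24h and AES, against 7.6%, 6.85% and 10.6% of all probe sets. Both RCAN1 calls depended on single arrays. The AES24h call was lost without any 1 of 7 of the 8 arrays compared: IL-1β replicates 1, 2, 3 and 4 (limma adjusted p = 0.137, 0.153, 0.0565 and 0.164) and AES24h replicates 1, 3 and 4 (0.249, 0.0561 and 0.167). The ACS call was lost without ACS replicate 1, the highest array (0.0684), or IL-1β replicates 1, 2 or 4 (0.0601, 0.0642 and 0.051). RCAN1 differences without 1 array ran from 0.92 to 1.24 for AES24h and from 1.00 to 1.55 for ACS. With the 3 sera pooled against IL-1β alone, a comparison added after these values were seen, RCAN1 rose by 1.07 (SE 0.21, limma adjusted p = 0.00474, 0.733% of all probe sets called). That call was lost with the spread of the compared groups only (limma adjusted p = 0.0756), as were those of ACS (0.221) and AES24h (0.125) against IL-1β. The AES24h call was also lost without the intensity trend (0.0505) and with arrays renormalised by quantiles (0.0563) or centred on their medians (0.0709).

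Against control pellets at 48 h RCAN1 was higher in all 3 serum groups. Those groups held IL-1β as well as serum and control pellets held neither, so these differences cannot be assigned to serum alone. IL-1β alone differed from control by 0.71. Control arrays had 7.39, 6.96, 7.20 and 7.03, and none reached the lowest serum array, a separation found for 4.25%, 4.39% and 6.29% of all probe sets with ACS, AES24h and AES. The rise was 2.04 with ACS (SE 0.25, limma adjusted p = 8.8e-07), 1.82 with AES24h (7.37e-06) and 1.48 with AES (0.000139). It was the 1 of 4 genes called in each comparison, where 3.85%, 3.54% and 7.76% of all probe sets were called. All 3 calls held without any 1 array. These comparisons and those with IL-1β alone share their serum arrays. Markers of cell types also stood apart between the same arrays. The sum of 17 chondrocyte marker values ran from 114.5 to 124.6 with ACS, 114.3 to 123.2 with AES24h and 114.3 to 125.9 with AES, against 132 to 149.2 in control pellets, and 13, 13 and 14 of 17 fell. The sum of 15 leukocyte marker values ran from 50.8 to 57.3 with ACS, 49.96 to 58.1 with AES24h and 51.1 to 61 with AES, against 46.9 to 48.8 in control pellets, and 1, 1 and 2 of 15 rose. With IL-1β alone at 48 h the chondrocyte sum ran from 122 to 126 and the leukocyte sum from 47.2 to 54.0. The part of these shifts in the RCAN1 result was not tested.

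NR4A2 at 48 h was split by array within every serum group. It measured 6.94, 5.29, 5.67 and 6.58 with AES, 6.64, 6.16, 5.90 and 7.33 with AES24h, and 6.77, 5.59, 5.57 and 7.07 with ACS. IL-1β arrays had 5.04, 5.65, 5.08 and 5.31, and control arrays 5.80, 5.87, 5.26 and 5.65. Replicates 1 and 4 of the 3 sera lay between 6.58 and 7.33, and replicates 2 and 3 between 5.29 and 6.16, a split noticed after the values were seen. The differences from IL-1β alone were 0.85 for AES (95% interval −0.0037 to 1.71), 1.24 for AES24h (0.38 to 2.09) and 0.98 for ACS (0.13 to 1.84). None passed (limma adjusted p = 0.474, 0.377 and 0.534), nor did the pooled difference of 1.02 (SE 0.34, limma adjusted p = 0.229). Against control the differences were 0.47, 0.86 and 0.60 for AES, AES24h and ACS, and none passed (limma adjusted p = 0.527, 0.433 and 0.652).

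NR4A1 arrays with and without serum overlapped at 48 h. It measured 4.65, 4.71, 4.52 and 4.65 with AES, 4.96, 4.82, 4.82 and 4.59 with AES24h, and 4.60, 4.24, 4.69 and 4.33 with ACS. IL-1β arrays had 4.28, 4.48, 4.75 and 4.55, and control arrays 4.38, 4.69, 5.01 and 4.38. The differences from IL-1β alone were 0.12 (95% interval −0.27 to 0.50) for AES, 0.28 (−0.11 to 0.67) for AES24h and −0.05 (−0.44 to 0.34) for ACS, the last of which changed sign with arrays rescaled. NR4A3 had values of 2.36 to 2.74 in 10 of 12 serum arrays, with 3.69 in AES24h replicate 1 and 3.58 in ACS replicate 1. Its differences from IL-1β were −0.0046, 0.28 and 0.18 for AES, AES24h and ACS, with intervals reaching at most 1.11.

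**Figure D2:**
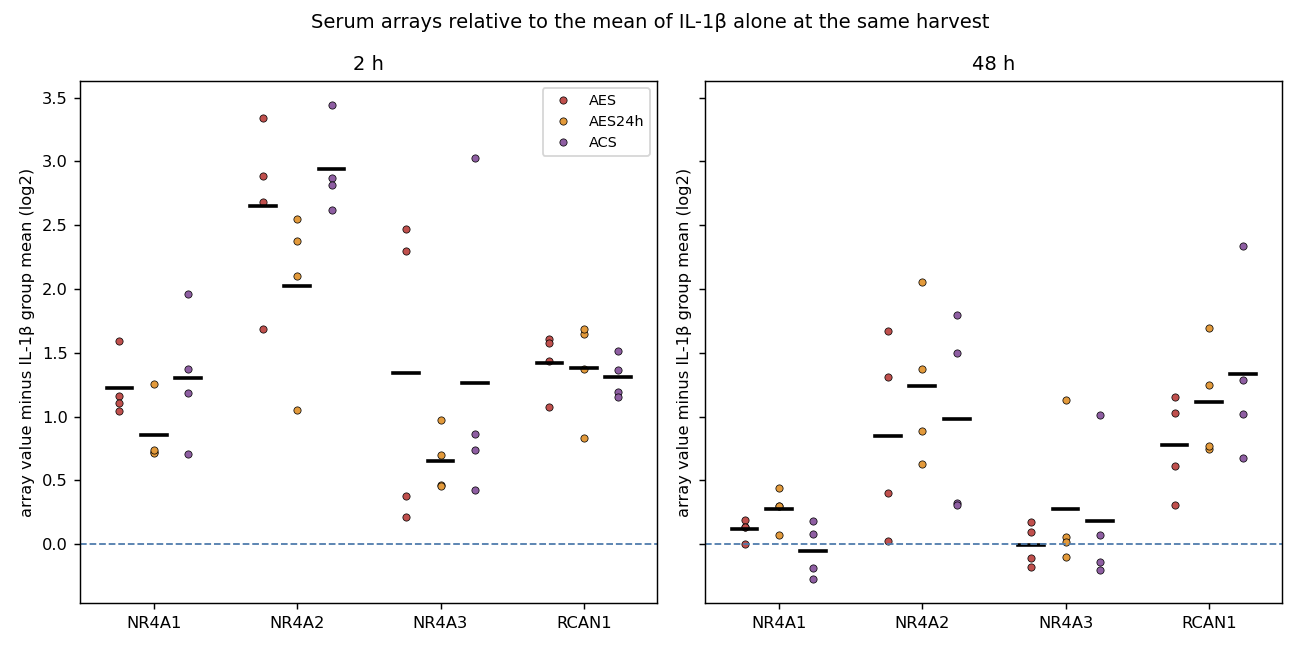
Each serum array minus the mean of the IL-1β arrays of the same harvest (log2), for the 3 sera at 2 h and 48 h. Points are arrays, black bars group means and the dashed line is the IL-1β mean. NR4A2 is at 2.02 to 2.94 at 2 h and 0.85 to 1.24 at 48 h, and RCAN1 at 1.31 to 1.42 and 0.78 to 1.33.

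The sera were also set against each other at 48 h. Limma called 0 of 4 genes in each of the 3 pairs of sera, and 0 of all 30559 probe sets (0%). An unadjusted p below 0.05 was reached by 1 of 4 genes between ACS and AES (10.7% of all probe sets), 0 of 4 between ACS and AES24h (2.47%) and 0 of 4 between AES24h and AES (11.7%). RCAN1 differed by 0.56 between ACS and AES (95% interval 0.04 to 1.07, limma adjusted p = 0.441), by 0.22 between ACS and AES24h (−0.30 to 0.73) and by 0.34 between AES24h and AES (−0.18 to 0.86). For NR4A2 the interval of AES24h minus AES ran from −0.47 to 1.24.

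**Figure D3:**
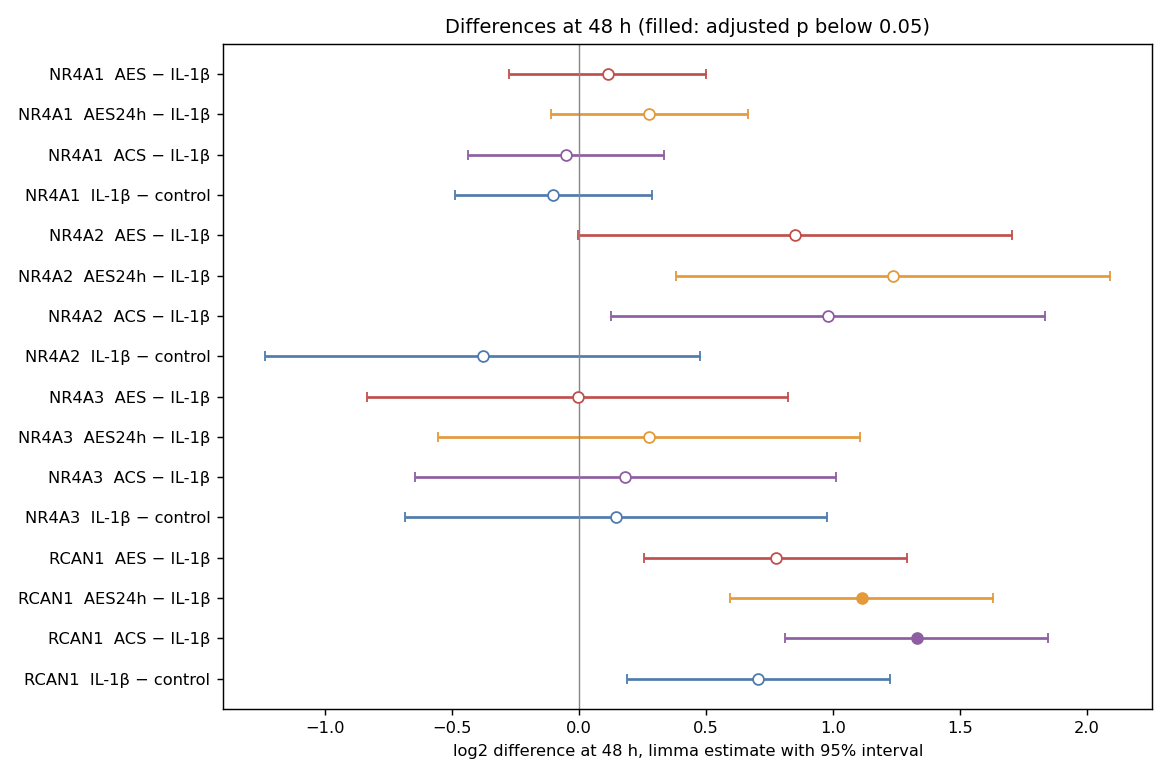
Log2 differences at 48 h with 95% intervals from limma for each serum against IL-1β alone and for IL-1β alone against control. Filled points have an adjusted p below 0.05 over all probe sets, which were RCAN1 with AES24h (1.11) and ACS (1.33).

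RCAN1 also had lower values at the later harvest in pellets without serum, by a difference whose call in control pellets depended on the fit. Control pellets had 7.39, 6.96, 7.20 and 7.03 at 48 h and 8.14, 8.59, 8.42 and 8.30 at 2 h, with no overlap. The difference was −1.22 (95% interval −1.73 to −0.70, unadjusted p = 3.28e-05), and it did not pass (limma adjusted p = 0.143) where 0.00327% of all probe sets did, but passed with array weights (limma adjusted p = 0.00973). Limma thus called 0 of 4 genes there, with 1 of 4, RCAN1, at an unadjusted p below 0.05, against 5.23% of all probe sets. With IL-1β alone the 48 h arrays also lay below all 2 h arrays, by −0.87, without a test. All 48 h arrays lay below all 2 h arrays for 2.32% of probe sets in control pellets and for 1.93% with IL-1β. In serum groups RCAN1 differed between 48 h and 2 h by −1.51 with AES, −1.14 with AES24h and −0.84 with ACS. NR4A2 differed by −2.33, −1.31 and −2.49 and NR4A1 by −1.34, −0.81 and −1.59 in the same groups, without a test because the 2 h arrays led to the choice. In control pellets NR4A2 differed by 0.18 and NR4A1 by −0.23 between the times, with intervals of −0.68 to 1.03 and −0.62 to 0.16.

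The order of the 10 group means differed between the genes. For NR4A1 the 3 serum groups at 2 h came first (6.05, 5.97 and 5.60 for ACS, AES and AES24h), and the other 7 groups lay together between 4.47 and 4.84. NR4A2 had the same first 3 groups (8.74, 8.45 and 7.82), then the 3 serum groups at 48 h between 6.12 and 6.51, then the 4 groups without serum between 5.27 and 5.80. Neighbours in that order had overlapping arrays throughout. NR4A3 had the 2 h serum groups at 4.02, 3.95 and 3.33 for AES, ACS and AES24h, and the other 7 groups between 2.42 and 2.84. RCAN1 had the 2 h serum groups between 10.03 and 10.14, followed by ACS and AES24h at 48 h (9.18 and 8.97). IL-1β at 2 h (8.72), AES at 48 h (8.63) and control at 2 h (8.36) came next with overlapping arrays, and IL-1β (7.85) and control (7.14) at 48 h came last. Over the 10 group means NR4A1 correlated with NR4A2 at r = 0.943 and with NR4A3 at 0.963, and RCAN1 with the NR4A genes at 0.799 to 0.883. These are descriptions of points that share arrays and the early serum groups for which the genes were chosen.

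The named genes most like each of the 4 were found by Pearson correlation over the 40 arrays. NR4A2 ran closest to ETS2, a transcription factor of the ETS family (r = 0.912), then to RGS2, a brake on G protein signalling (0.86), PLK3, a polo-like kinase (0.85), and TBX3, a T-box repressor (0.833). NR4A1 was closest to NR4A2 (0.832), MID1, a ubiquitin ligase (0.831), PPP1R15A, the stress-induced phosphatase subunit (0.831), SELENOS, a selenoprotein of the endoplasmic reticulum (0.82), and ETS2 (0.812). NR4A3 was closest to LCTL, a member of the Klotho family (0.811), then to BACH2, a transcriptional repressor (0.783), NR4A1 (0.769), ETS2 (0.751) and NR4A2 (0.732). RCAN1 was closest to LIF, a cytokine of the interleukin-6 family (0.907), RGS2 (0.888), TBX3 (0.869), UGCG, which makes glucosylceramide (0.846), and REL, an NF-kB subunit (0.846). All correlations rest on the same 40 arrays and their 10 groups, including the 2 h serum arrays for which the genes were chosen. Those of NR4A3 include the 3 arrays on which it exceeded every array median.

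The surrounding pathways were read from lists that leave out the 4 genes. The lists were chosen with earlier results of these data known, so their counts and p-values are descriptions and give no independent support. In the calcineurin and NFAT list, limma called 0 of 21 measured genes at 2 h for any serum against IL-1β alone, where 0.0164% (AES), 0.0229% (AES24h) and 0.0262% (ACS) of all probe sets were called. At an unadjusted p below 0.05 there were 1, 2 and 1 of 21, all lower, against 7.33%, 5.28% and 5.22% of all probe sets. The list's medians were −0.02, −0.06 and −0.05, beside 0.02, 0.01 and 0.02 over all probe sets. At 48 h 1 of 21 rose with AES, NFATC4, a calcineurin-regulated transcription factor, at 0.87 (SE 0.20, limma adjusted p = 0.0383), where 0.442% of all probe sets were called. With AES24h and ACS 0 of 21 were called (0.226% and 0.262%). An unadjusted p below 0.05 was reached by 5 in each, against 6.85% and 7.6% of all probe sets. With ACS these were PPP3CC, NFATC4, RCAN2 and HOMER2, higher, and NFAT5, lower. With AES (10.6%) NFATC4, RCAN2, CABIN1 and HOMER2 were higher at that level and NFATC3 and NFAT5 lower. IL-1β against control at 2 h raised 1 of 21, the scaffold gene HOMER2 at 0.70 (adjusted p = 0.00415), and lowered 1, CHP1, a calcineurin-like calcium-binding protein, at −0.93 (0.000636), where 4.52% of all probe sets were called. At 48 h CHP1 fell by 0.84 (0.00594) and NFAT5, the NFAT relative that responds to osmotic stress, by 0.66 (0.0253).

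Serum groups also held IL-1β, so their differences from control combine both. Against control at 48 h the same list had 3 genes higher and 3 lower with ACS, 3 and 3 with AES24h, and 2 and 3 with AES, where 3.85%, 3.54% and 7.76% of all probe sets were called. NFATC4 rose by 1.07, 1.09 and 1.27 and HOMER2 by 0.81, 0.84 and 0.93 with ACS, AES24h and AES, all called by limma. NFAT5 fell by 1.08, 1.02 and 1.28 in the same comparisons. NFATC1, a further NFAT factor, fell by 1.03 with AES24h.

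The cAMP route is a known inducer of NR4A genes. Limma called 0 of 23 machinery genes (kinase subunits, adenylyl cyclases, prostaglandin E receptors, CREB and its coactivators) for any serum at 2 h, with 2, 2 and 1 at an unadjusted p below 0.05 for AES, AES24h and ACS, and medians of −0.04, 0.06 and −0.02. Of 18 target genes 0 were called at 2 h, and 7, 4 and 7 had an unadjusted p below 0.05, all higher, against 7.33%, 5.28% and 5.22% of all probe sets, with medians of 0.28, 0.20 and 0.31. At 48 h RGS2 rose by 2.38 with AES24h (SE 0.46, limma adjusted p = 0.012) and by 2.16 with ACS (SE 0.46, 0.0293). SIK1, a kinase that curbs CREB coactivators, rose by 0.76 with AES (0.0409). Each was the 1 of 18 called in its comparison.

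Most other immediate early genes had positive differences with serum at 2 h, without any call. As this list too was chosen with earlier results known, its counts at 2 h only describe these arrays. Limma called 0 of 36 at 2 h, with 14, 16 and 14 at an unadjusted p below 0.05 for AES, AES24h and ACS, all higher, against 7.33%, 5.28% and 5.22% of all probe sets. Differences were positive for 34, 33 and 33 of the 36, and the list medians were 0.36, 0.37 and 0.39. FOS, FOSB, JUNB, DUSP1 and NFIL3 are also on the list of cAMP target genes, so the counts of both lists overlap. JUNB had an unadjusted p below 0.05 for each serum at 2 h and counts in both. At 48 h limma called 0 of 36 for each serum, with 6, 6 and 3 at an unadjusted p below 0.05. IL-1β against control raised 4 and lowered 2 of the 36 at 2 h, where 4.52% of all probe sets were called, among them NFIL3, a circadian and immune repressor, at 1.15 (limma adjusted p = 4.55e-05) and GEM, a small GTPase, at 0.82 (0.00607). FOS, the classic immediate early gene, fell by 1.47 at 48 h (0.0312).

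Nuclear receptors outside the NR4A family passed in no comparison of a serum with IL-1β alone. Limma called 0 of 39 at 2 h for each serum, with 2, 4 and 0 at an unadjusted p below 0.05 for AES, AES24h and ACS, and the differences ran from −0.52 to 0.34. At 48 h it called 0 of 39 as well (3, 2 and 6 at an unadjusted p below 0.05). The 3 retinoid X receptors, partners of NR4A1 and NR4A2, had differences between −0.19 and 0.17 at 2 h and 0 called at either time (0, 0 and 0 at an unadjusted p below 0.05 at 2 h, and 2, 0 and 0 at 48 h). IL-1β against control at 2 h raised 2 of 39, PPARG, the lipid-sensing receptor, at 1.18 (limma adjusted p = 0.00211) and NR6A1 at 0.48 (0.0486). Of 5 measured MEF2 factors and class IIa deacetylases, which act on the NR4A1 promoter in mouse lymphocytes, 0 were called for any serum against IL-1β (0, 1 and 0 at an unadjusted p below 0.05 at 2 h, and 2, 0 and 0 at 48 h).

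**Figure D4:**
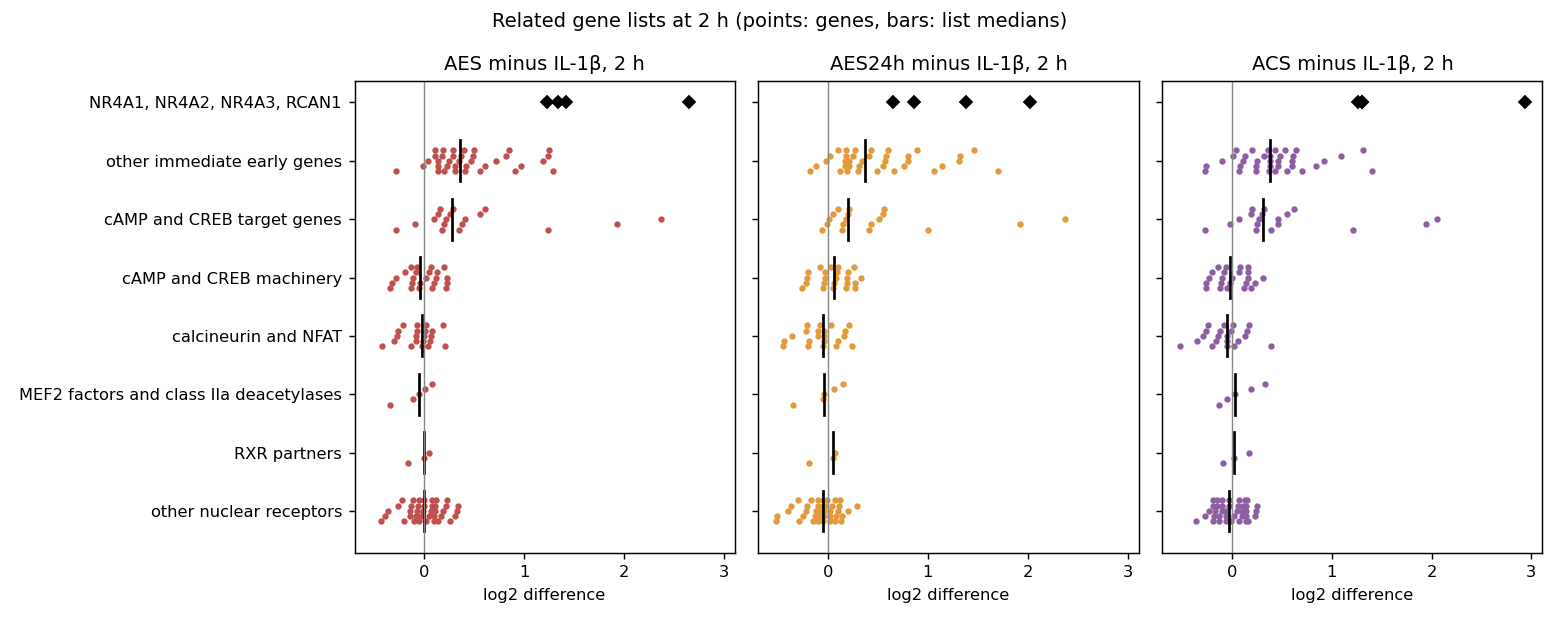
Log2 differences from IL-1β alone at 2 h for AES, AES24h and ACS, with 1 point per gene, a bar at each list's median and diamonds for NR4A1, NR4A2, NR4A3 and RCAN1. Medians of other immediate early genes lie at 0.36 to 0.39, those of calcineurin and NFAT genes at −0.06 to −0.02.

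Markers of other cells were read beside these results. At 2 h limma called 0 of 15 leukocyte, 6 red cell and platelet, 10 endothelial and mural and 8 synovial fibroblast markers for any serum against IL-1β alone. An unadjusted p below 0.05 was reached there by 1, 1 and 0 leukocyte markers with AES, AES24h and ACS, and by at most 1 marker of each other list. The sum of the 15 leukocyte values ran from 51.8 to 56.2 with AES, 50.4 to 53.1 with AES24h, 51.4 to 54.8 with ACS and 51.1 to 54.6 with IL-1β alone. At 48 h, where RCAN1 rose, the sum ran from 51.1 to 61 with AES, 49.96 to 58.1 with AES24h and 50.8 to 57.3 with ACS, against 47.2 to 54.0 with IL-1β alone. Of those markers 9, 9 and 10 lay below every array median with AES, AES24h and ACS, and 11 with IL-1β alone. Limma called 0 of 15 there, with 3, 1 and 2 at an unadjusted p below 0.05, all higher. Red cell and platelet and endothelial and mural markers had 0 called and 0 at an unadjusted p below 0.05 at 48 h, and synovial fibroblast markers had 1 of 8 called, higher with ACS. Of 17 chondrocyte markers 3, 1 and 1 fell at 48 h, COL11A1, a cartilage collagen chain, in each. The part of these shifts in the RCAN1 result was not tested, and in bulk RNA fewer cells of a type and less RNA per cell cannot be told apart.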

How the data were processed

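Total RNA of 40 equine chondrocyte pellet samples was hybridised to Affymetrix equine whole-transcript arrays. The deposited values were log2 signals. The submitters' processing notes list limma, RMA (background correction, quantile normalisation and probe summary) and Affymetrix Expression Console, without versions or roles. Quantile normalisation reduces any shift common to most transcripts. Groups and replicate numbers came from the sample titles, and 16789 probe sets with 1 symbol in the platform annotation were named. No genome or sequence was used.

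Limma 3.58.1 in R 4.3.3 fitted 10 group means to all 30559 probe sets and 40 arrays (30 residual and 4.62 prior degrees of freedom, intensity trend, two-sided). P-values were adjusted by Benjamini-Hochberg across the whole table, and 0.05 was the threshold. Of several probe sets of a gene, the one with the highest mean was used. The fit was tested on simulated data.

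Genes and lists were chosen with earlier results of these data known. Comparisons that hold serum or IL-1β arrays at 2 h were therefore described for the 4 genes without a test. Named genes were the 4 members, the 5 most correlated genes of each, and up to 4 called genes of a list with the smallest p. Replicate numbers were checked by correlating deviations from group means. Alternatives were the replicate number as a block, a filter that kept the 60% of probe sets with the highest means, no trend, array weights, renewed quantile normalisation, median centring, the spread of the compared groups only, and each array left out.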

Additional observations from a re-analysis of the deposited data

Results flagged for a closer look

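Of 40 groups of 4 arrays, 10 for each gene, 3 held an array set apart from the other 3 by a gap that took up most of the group's range. Chance flags about 1 in 20 such groups. NR4A1 in AES24h replicate 2 at 2 h was 5.999, with the next array at 5.49 and a gap of 0.958 of the range. NR4A3 in ACS replicate 2 at 2 h was 5.71, with the next at 3.55 and a gap of 0.831 of the range. NR4A3 in AES24h replicate 1 at 48 h was 3.69, with the next at 2.62 and a gap of 0.875 of the range.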

How the results depend on the processing

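The count of the 4 genes called changed under an alternative in 3 planned comparisons. The 1 call with AES24h against IL-1β at 48 h became 0 without the intensity trend, with renewed quantile normalisation, with median centring and with the spread of the compared groups only (RCAN1 adjusted p = 0.0505, 0.0563, 0.0709 and 0.125), and ran from 0 to 1 without 1 array. The 1 call with ACS became 0 with the spread of the compared groups only (adjusted p = 0.221) and ran from 0 to 1 without 1 array. Fewer arrays inform the spread where only the compared groups are used or 1 array is left out. For control at 48 h against 2 h, 0 calls became 1 with array weights (RCAN1 adjusted p = 0.00973) and 1 with the replicate number as a block (0.0446). For the pooled sera at 48 h, added later, 1 call became 2 with the replicate block (NR4A2 adjusted p = 0.0418) and 0 with the spread of the compared groups only. The labels do not say that replicate numbers pair the samples. Deviations of same-numbered arrays correlated at a median of 0.11 (range −0.13 to 0.52), and 36 of 40 arrays correlated best with their own number. Among planned comparisons the block changed no other call of these genes. It moved the count of all probe sets called from 135 to 460 for AES, from 69 to 215 for AES24h and from 80 to 246 for ACS against IL-1β at 48 h. With the spread of the compared groups only, that count was 5 for AES and 1 for ACS. Over all alternatives it ran from 17 to 215 for AES24h against IL-1β, 874 to 2260 (of 1380) and 244 to 757 (of 386) for IL-1β against control at 2 h and 48 h, 997 to 3535 (of 2370), 759 to 1587 (of 1083) and 735 to 1695 (of 1177) for AES, AES24h and ACS against control, and 83 to 518 (of 224) for the pooled sera. It reached 134 and 44 (of 0) for AES24h and ACS against AES without AES replicate 3, 53 (of 1) for control and 21 (of 2) for IL-1β over time, and 85 (of 1) for the IL-1β effect over time. NR4A3 was not among the upper 60% of probe sets and has no value there.

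Signs turned only for differences that had not passed or had no test. With array weights NR4A3 became −0.018 for IL-1β against control at 2 h, and NR4A1 became 0.13 for the IL-1β effect at 48 h minus 2 h. With renewed quantile normalisation and with median centring NR4A1 was 0.00016 and 0.0036 for ACS against IL-1β at 48 h, and −0.072 and −0.078 for AES against control. Without 1 array, NR4A1 ran from −0.21 to 0.015 (IL-1β against control, 2 h), −0.18 to 0.031 (48 h), −0.11 to 0.13 (their difference), −0.13 to 0.029 (ACS against IL-1β, 48 h) and −0.063 to 0.15 (AES against control, 48 h). NR4A2 ran from −0.10 to 0.58 (IL-1β against control, 2 h), −0.15 to 0.40 (ACS against AES, 48 h), −0.53 to 0.017 (ACS against AES24h, 48 h) and −0.12 to 0.31 (control, 48 h against 2 h). NR4A3 ran from −0.050 to 0.18 (IL-1β against control, 2 h), −0.037 to 0.20 (its change with time), −0.065 to 0.054, −0.0085 to 0.40 and −0.092 to 0.31 (AES, AES24h and ACS against IL-1β, 48 h), −0.0038 to 0.40 (AES24h against AES), −0.088 to 0.32 (ACS against AES) and −0.37 to 0.19 (ACS against AES24h). RCAN1 ran from −0.12 to 0.43 (ACS against AES24h, 48 h). The 12 differences at 2 h between sera and IL-1β moved by less than the replicate SD in each setting.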
